A study of Mus musculus with 27 samples.

Results

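CC chemokines are small secreted proteins that attract leukocytes through G protein-coupled receptors, and activated macrophages are one of their main sources. In the textbook division, LPS, a ligand of Toll-like receptor 4 from bacteria, induces the inflammatory members that recruit monocytes and T cells, whereas IL-4, a type 2 cytokine that signals through STAT6, is linked to members that recruit eosinophils and Th2 cells. Transcription of 10 CC chemokine genes was examined here: Ccl2 and Ccl7, ligands of the monocyte receptor Ccr2, Ccl3, Ccl4 and Ccl5, attractants of monocytes and T cells, Ccl6 and Ccl9, ligands of Ccr1, Ccl17 and Ccl22, ligands of the T cell receptor Ccr4, and Ccl24, an eotaxin and ligand of the eosinophil receptor Ccr3. The 10 genes were taken by symbol from a table of 45070 genes.

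Cultured macrophages grown from the bone marrow of male C57/BL6 mice of wild type genotype (BMDMs) were studied. Every culture, the untreated ones included, first received 1 h of DMSO, the solvent of inhibitors used elsewhere in the study. BMDMs were then left untreated or given LPS or IL-4, each at 10 ng/ml, over 0.5, 1, 2 or 4 h, which gave 9 groups of 3 replicates and 27 samples. The same untreated group served every LPS and IL-4 time, with no untreated culture matched to each time. Changes against untreated therefore cannot be told apart from changes with time or handling. Chromatin-associated RNA was sequenced, a fraction enriched for nascent and unspliced transcripts, so the values stand closer to ongoing transcription than to the stored mRNA or to secreted protein, neither of which was measured here. All values are normalized read counts, scaled by the authors on genes taken as invariant and rounded to whole numbers, and not raw counts. Nothing in the labels says that replicates came from separate cultures or animals, so p-values measure only the spread between these samples, which may be technical.

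Summed normalized read counts ran from 2469768 to 2790981 in the untreated and IL-4 libraries and from 3571492 to 4058199 in the LPS libraries. A gene was tested if at least 3 of the 27 samples held 10 or more normalized read counts, which left 13901 genes and 9 of the 10 members. Ccl17 failed this filter. Ccl5 and Ccl22 reached 10 only in LPS libraries (12 and 10 of them), and Ccl24 only in IL-4 libraries (8 of them). Ccl2 and Ccl7 reached it in no untreated library. These members entered through the groups where they are high, so their calls there are not independent of the filter. Differences are log2 fold changes of (value + 1) with their SE from limma, and the adjusted p was Benjamini-Hochberg corrected over all 13901 genes, with 0.05 as threshold. The 7 macrophage markers (Adgre1, Csf1r, Cd68, Itgam, Mertk, Fcgr1 and Lyz2) summed to between 9579 and 17755 in every library. The 6 T cell markers summed to 37 at most and the 5 B cell markers to 8 at most, and Cd3e and Cd3g were at 0 in all 27 libraries. The 6 dendritic cell markers, a cell type known for Ccl17 and Ccl22, summed to between 11 and 20 in untreated libraries. After LPS they summed to between 20 and 25 at 0.5 h and to between 55 and 101 at 1 h. At 2 and 4 h of LPS the sums were 17 to 40 and 29 to 47. The 7 neutrophil and progenitor markers summed to between 5 and 11 in untreated and to between 14 and 88 in LPS 2 h libraries. The 6 mast cell, basophil and eosinophil markers summed to 9 at most, and the 5 fibroblast markers to between 28 and 218. The part of these cells in the chemokine values was not tested. Over the 620 genes with the highest means, the SD of the log2 ratio of replicates 2 and 3 was 0.138 to 0.287 in the 9 groups, against 0.371 to 0.451 for replicates 1 and 2, so replicates 1 stood apart.

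The genes lie in 3 places (GRCm38, positions counted from 1 as deposited). On chromosome 11, Ccl2 (chr11:82035577-82037452, plus strand) and Ccl7 (chr11:82045712-82047525, plus strand) are 8.26 kb apart. At 1478 kb from Ccl7 on the same chromosome follow Ccl5 (chr11:83525778-83530518, minus strand), Ccl9 (chr11:83572917-83578636, minus strand), Ccl6 (chr11:83587886-83593087, minus strand), Ccl3 (chr11:83647843-83649378, minus strand) and Ccl4 (chr11:83662584-83664683, plus strand). Ccl22 (chr8:94745684-94751388) and Ccl17 (chr8:94810453-94812036), both on the plus strand of chromosome 8, are 59.1 kb apart, and Ccl24 (chr5:135569935-135573049, minus strand) stands alone on chromosome 5. All 10 genes are protein-coding. Within their bounds 8 members share no base with another annotated gene. The exceptions are Ccl5, which lies whole inside the non-coding gene Gm32650 on the other strand, and Ccl6, which lies whole inside the non-coding gene E230016K23Rik on the other strand.

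RefSeq promoter sequence on GRCm38.p6 was at hand for 5 members, and the 250 bases before the annotated start are shown for these because they set genes that rose strongly after LPS (Ccl3, Ccl9, Ccl22) beside one that did not (Ccl6) and one that was barely transcribed (Ccl17). Each runs 5′ to 3′ on the strand of the gene up to the base before the start, in lower case, and capitals mark a match to a searched motif.
Ccl3, chr11:83649379-83649628, minus strand: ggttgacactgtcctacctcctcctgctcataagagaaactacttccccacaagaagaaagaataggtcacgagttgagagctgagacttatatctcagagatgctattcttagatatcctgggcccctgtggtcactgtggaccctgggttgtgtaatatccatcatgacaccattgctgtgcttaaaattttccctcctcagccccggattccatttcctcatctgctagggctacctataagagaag
Ccl9, chr11:83578637-83578886, minus strand: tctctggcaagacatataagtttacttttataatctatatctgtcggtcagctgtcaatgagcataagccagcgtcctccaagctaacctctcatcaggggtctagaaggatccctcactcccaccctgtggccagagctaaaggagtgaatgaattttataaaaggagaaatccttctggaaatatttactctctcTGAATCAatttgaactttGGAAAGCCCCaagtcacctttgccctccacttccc
Ccl22, chr8:94745434-94745683, plus strand: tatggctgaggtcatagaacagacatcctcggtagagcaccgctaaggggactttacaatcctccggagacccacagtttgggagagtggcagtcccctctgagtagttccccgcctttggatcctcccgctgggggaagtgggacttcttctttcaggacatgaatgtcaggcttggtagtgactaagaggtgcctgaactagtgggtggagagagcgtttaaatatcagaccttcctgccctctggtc
Ccl6, chr11:83593088-83593337, minus strand: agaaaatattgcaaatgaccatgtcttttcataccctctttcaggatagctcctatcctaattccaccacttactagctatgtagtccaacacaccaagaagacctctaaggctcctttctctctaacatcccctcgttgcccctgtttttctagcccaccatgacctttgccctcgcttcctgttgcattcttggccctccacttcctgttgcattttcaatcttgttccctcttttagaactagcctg
Ccl17, chr8:94810203-94810452, plus strand: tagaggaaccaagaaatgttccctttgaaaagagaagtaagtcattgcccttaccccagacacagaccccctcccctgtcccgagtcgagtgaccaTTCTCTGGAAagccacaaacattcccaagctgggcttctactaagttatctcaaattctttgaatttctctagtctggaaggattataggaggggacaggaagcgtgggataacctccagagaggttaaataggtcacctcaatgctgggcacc

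Both strands of these stretches were searched for a STAT6-type motif (TTCNNNNGAA), a kappaB-type motif (GGGNNTTNCC), an AP-1-type motif (TGANTCA) and an ISRE-type motif (GAAANNGAAA). Ccl9 held an AP-1-type match from base -53 to -47 before the start and a kappaB-type match on the opposite strand from base -35 to -26, and the 2 matches do not overlap. Ccl17 held a STAT6-type match from base -154 to -145. Ccl3, Ccl22 and Ccl6 held none of these letters in this window. Of 32851 promoters in the table, 5.85% held the STAT6-type, 4.11% the kappaB-type, 6.75% the AP-1-type and 2.98% the ISRE-type letters. A match describes the sequence only, and binding was not measured here.

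Of the 9 tested members, 8 were called higher at 0.5 h of LPS, and Ccl6 was the exception. Ccl24, among those 8, lay close to the floor and overlapped its untreated libraries. Together the 10 genes held 0.00456% ± 0.000658 (SD, n = 3) of all normalized read counts in untreated BMDMs, 0.100% ± 0.00826 at 0.5 h, 0.170% ± 0.0205 at 1 h, followed by 0.235% ± 0.0132 at 2 h and 0.230% ± 0.0322 at 4 h of LPS. All 9 tested members passed the F test over the LPS course, which 87.6% of all tested genes passed. The number higher than untreated was 8 at 0.5 h (background 19.6% of tested genes), 8 at 1 h (24.8%), 8 at 2 h (26.9%) and 7 at 4 h (25.9%). None was lower at 0.5 h (34.4% of tested genes) or 1 h (39.0%), and 1 member, Ccl6, was lower at 2 h (39.0%) and at 4 h (37.6%). The median log2 fold change of the 9 members was 4.53, 5.59, 5.09 and 5.59 at the 4 successive times, beside -0.24, -0.30, -0.29 and -0.26 over all tested genes. Scaling every library to the same total moved the all-gene medians to between -0.73 and -0.91, and scaling by median ratios to between -0.01 and -0.06.

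**Figure D1:**
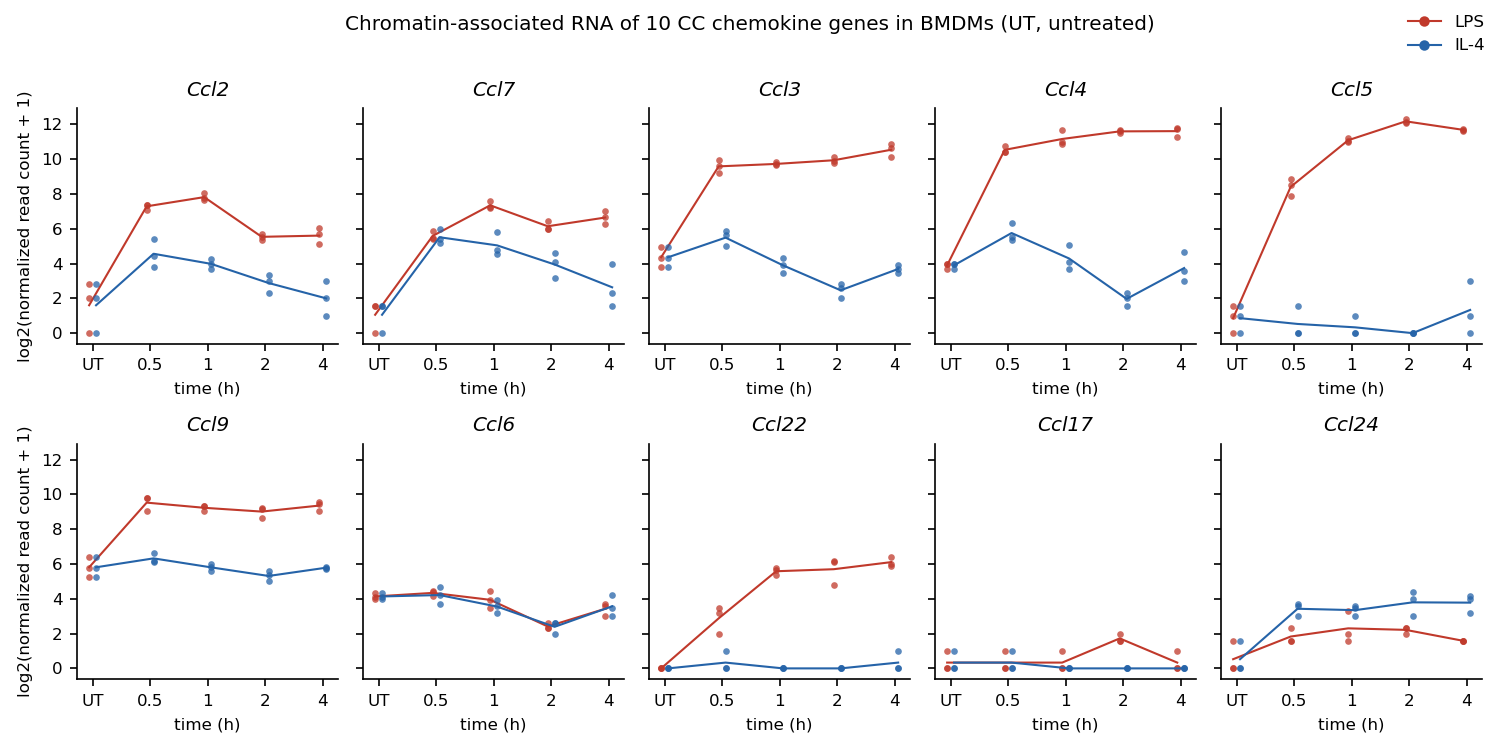
Each panel shows 1 gene, with time on the x axis (UT, untreated) and log2(normalized read count + 1) on the y axis. Points are single libraries, lines join the means of 3 replicates, LPS is red and IL-4 is blue, and the untreated libraries are drawn in both colors. Ccl3, Ccl4, Ccl5 and Ccl9 stay high from 0.5 h of LPS onward, Ccl2 peaks at 264 normalized read counts at 1 h, and Ccl24 is the member that lies higher after IL-4.

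Ccl2, the chief monocyte attractant, was near absent in untreated BMDMs, with 0, 6 and 3 normalized read counts in replicates 1 to 3. It reached 167, 165 and 137 at 0.5 h of LPS and 264, 199 and 217 at 1 h, then stood at 46, 40 and 51 at 2 h and 34, 50 and 64 at 4 h. The LPS libraries at each time were all above the untreated ones, and those of 0.5 and 1 h were all above those of 2 and 4 h. The mean was 75.6-fold above untreated at 1 h (log2 6.22 ± 0.48, adjusted p = 2.80e-08) and 16.4-fold at 4 h (log2 4.01 ± 0.48, adjusted p = 2.77e-06). The untreated mean of 3 lies at the floor, and single untreated libraries move these ratios, which were 151 and 32.9 without replicate 2, and the ratio at 1 h was 50.4 without replicate 1. From 1 to 2 h Ccl2 fell by 2.28 on the log2 scale (adjusted p = 0.00113).

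Ccl7, its neighbor and a further Ccr2 ligand, stood at 0, 2 and 2 in untreated BMDMs and at 42, 58 and 43 at 0.5 h of LPS. It reached 189, 153 and 147 at 1 h, and stood at 87, 62 and 63 at 2 h and 75, 100 and 130 at 4 h. No LPS library overlapped the untreated ones, and the 1 h libraries were above all others. Ccl7 rose between 0.5 and 1 h (log2 1.76 ± 0.35, adjusted p = 0.00074) and fell by 1.20 between 1 and 2 h (adjusted p = 0.0117). Both Ccr2 ligands had their highest mean at 1 h, though the Ccl2 step from 0.5 to 1 h did not pass (log2 0.53, adjusted p = 0.384). The Ccl7 fall was lost without the libraries numbered 2 or 3 (adjusted p = 0.112 and 0.0889), with those averaged (adjusted p = 0.0928) and with 0.25 added in place of 1 (adjusted p = 0.122). Against untreated the difference was 6.29 ± 0.35 at 1 h (adjusted p = 7.48e-10), a log2 value that depends on the 1 added to each count because no untreated library was above 2, and which was 4.20 with 8 added.

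Ccl3 and Ccl4, chemokines for monocytes and T cells that lie 13.2 kb apart on opposite strands, were transcribed in untreated BMDMs at a low level. Ccl3 stood at 30, 13 and 19 and Ccl4 at 15, 15 and 12. At 0.5 h of LPS, Ccl3 held 979, 784 and 592 normalized read counts and Ccl4 held 1747, 1388 and 1352. Neither fell back within 4 h: Ccl3 stood at 903, 844 and 800 at 1 h, at 883, 1104 and 970 at 2 h and at 1113, 1845 and 1619 at 4 h. Ccl4 stood at 3222, 2026 and 1847 at 1 h, at 3173, 2876 and 3283 at 2 h and at 2519, 3613 and 3387 at 4 h. All LPS libraries were far above the untreated ones for both genes. The mean of Ccl3 was 38.0-fold above untreated at 0.5 h (log2 5.23 ± 0.25, adjusted p = 2.10e-10) and 73.8-fold at 4 h (log2 6.18 ± 0.25, adjusted p = 1.06e-11). For Ccl4 the mean was 107-fold above untreated at 0.5 h (log2 6.64 ± 0.19, adjusted p = 4.69e-13) and 227-fold at 4 h (log2 7.71 ± 0.19, adjusted p = 6.76e-14). Ccl4 rose further between 0.5 and 1 h (log2 0.63 ± 0.19, adjusted p = 0.0131), a step at which Ccl3 did not pass the test (adjusted p = 0.671). The Ccl4 step was called in 22 of 28 alternatives and lost, among others, without LPS 0.5 h replicate 3 (adjusted p = 0.0515), without LPS 1 h replicate 1 (log2 0.38, adjusted p = 0.0724) and in 1 fit of all samples (adjusted p = 0.131).

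Ccl5, which attracts T cells and monocytes, went from 1, 2 and 0 in untreated BMDMs to 468, 359 and 232 at 0.5 h of LPS. It stood at 2367, 2127 and 2065 at 1 h, at 4311, 4579 and 5045 at 2 h and at 3186, 3393 and 3318 at 4 h. The libraries of each of the first 3 time points lay above all those of the time before, and those of 4 h lay between those of 1 and 2 h. Steps up were found from 0.5 to 1 h (log2 2.68 ± 0.30, adjusted p = 3.08e-06) and from 1 to 2 h (log2 1.09 ± 0.30, adjusted p = 0.00764), and the 2 to 4 h step did not pass (adjusted p = 0.275). The 1 to 2 h step was lost in 3 of 28 alternatives, without the libraries numbered 2 (adjusted p = 0.0537), in 1 fit of all samples (adjusted p = 0.0909) and with 0.25 added in place of 1 (adjusted p = 0.115). Ccl5 was the highest of the members by normalized read count at 2 h, and its difference from untreated there was 11.32 ± 0.30 on the log2 scale (adjusted p = 1.14e-13), or 9.02 with 8 added. The non-coding gene Gm32650, which covers all 4741 bases of Ccl5 on the other strand, had means of 3.33 in untreated BMDMs and 413, 2297, 4879 and 3749 after 0.5, 1, 2 and 4 h of LPS. Since it was not stated whether counting used strand, reads of the pair cannot be told apart.

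Ccl9, a Ccr1 ligand of rodents, was the member with most normalized read counts in untreated BMDMs (37, 54 and 84). After LPS it held 529, 871 and 875 at 0.5 h, 521, 654 and 637 at 1 h, followed by 394, 601 and 582 at 2 h and 536, 755 and 700 at 4 h. The LPS groups overlapped one another and lay above all untreated libraries. The mean was 13-fold above untreated at 0.5 h (log2 3.72 ± 0.27, adjusted p = 2.03e-08) and 11.4-fold at 4 h (log2 3.55 ± 0.27, adjusted p = 1.28e-08), and none of the 3 steps in between passed the test (adjusted p = 0.378, 0.556 and 0.406).

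Ccl6, the next gene along and also a Ccr1 ligand, did not rise. Its 3 libraries held 16, 19 and 15 in untreated BMDMs, 17, 20 and 21 at 0.5 h of LPS, 10, 14 and 21 at 1 h, followed by 4, 4 and 5 at 2 h and 7, 11 and 12 at 4 h. The 2 h libraries were below all untreated ones, with a mean 3.85-fold lower (log2 -1.73 ± 0.30, adjusted p = 0.000109). At 4 h the difference of -0.71 ± 0.30 was just past the threshold (adjusted p = 0.0491). It lost that call with median-ratio scaling (adjusted p = 0.15) and when any 1 of 11 libraries was left out, the 3 untreated, the 3 LPS 0.5 h, LPS 1 h replicate 2, LPS 2 h replicates 2 and 3 or LPS 4 h replicates 1 and 2 (adjusted p from 0.0546 to 0.193). E230016K23Rik, which covers Ccl6 on the other strand, had means of 19.7 in untreated BMDMs and 54.3, 49.7, 14.3 and 31.3 along the LPS course, and how reads of the pair were split was not stated.

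Ccl22, which attracts Ccr4-positive T cells, was at 0 in all 3 untreated libraries. It reached 3, 10 and 8 at 0.5 h of LPS, 40, 53 and 49 at 1 h, followed by 27, 71 and 69 at 2 h and 58, 85 and 64 at 4 h. Against a floor of 3 normalized read counts per library, the mean was at least 15.8-fold higher at 1 h and at least 23.0-fold higher at 4 h. The log2 differences were 2.88 ± 0.40 at 0.5 h (adjusted p = 2.18e-05) and 6.11 ± 0.40 at 4 h (adjusted p = 2.24e-09), and the step from 0.5 to 1 h passed (log2 2.71 ± 0.40, adjusted p = 4.46e-05). Sizes against untreated depend on the 1 added to each count, and over the alternatives those at 0.5 and 4 h went down to 0.88 and 3.25. Ccl17, its neighbor and the other Ccr4 ligand, held 3 normalized read counts at most in any of the 27 libraries. The highest Ccl17 values were 2, 3 and 2 at 2 h of LPS, all other libraries held 0 or 1, and no fold is given because all groups were at or under the floor.

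Ccl24 stood at 0, 2 and 0 in untreated BMDMs and at 4, 2 and 2, then 2, 3 and 9, then 3, 4 and 4, then 2, 2 and 2 at the successive LPS times. These values are close to the floor, and the groups of 0.5, 1 and 4 h touch or overlap the untreated one. It passed the test at 0.5 h (log2 1.30 ± 0.49, adjusted p = 0.0362), 1 h (adjusted p = 0.00551) and 2 h (adjusted p = 0.00731) and not at 4 h (adjusted p = 0.0736). The 0.5 h call was lost without untreated replicate 1, untreated replicate 3 or LPS 0.5 h replicate 1 (adjusted p from 0.129 to 0.139) and, with every library numbered 3 left out, those of 1 and 2 h were lost as well (adjusted p = 0.191 and 0.081). Scaling to equal totals (adjusted p = 0.0701), adding 8 in place of 1 (adjusted p = 0.149) and using no filter (adjusted p = 0.0817) also ended the 0.5 h call.

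**Figure D2:**
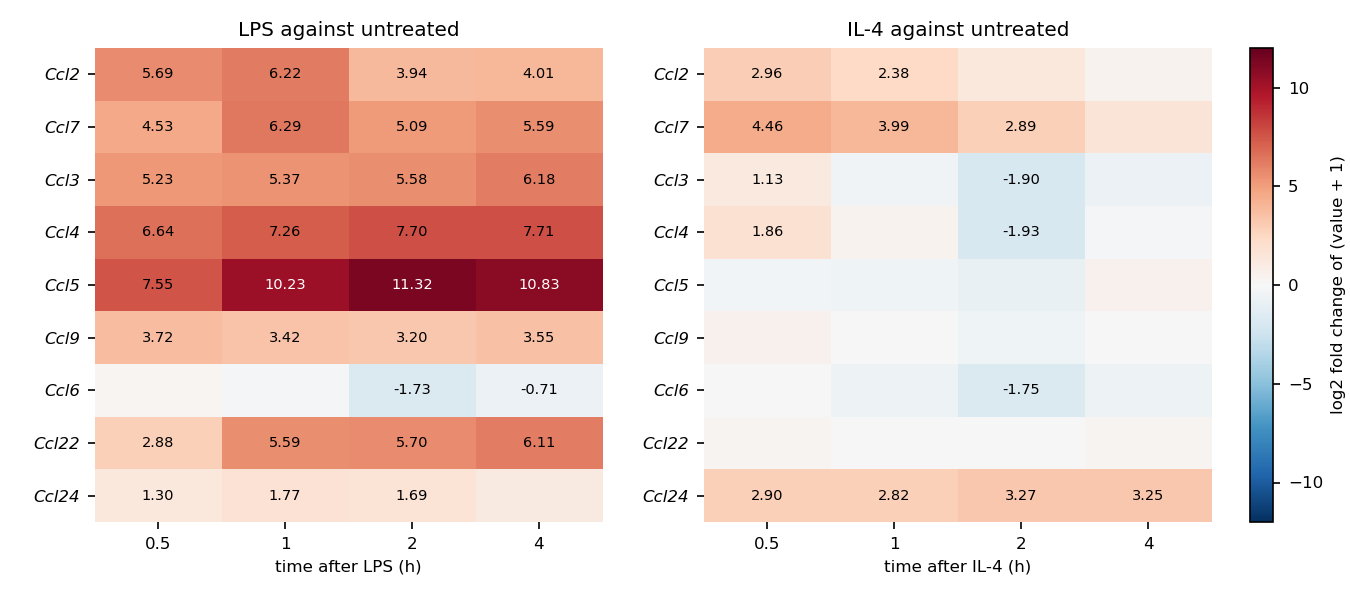
Log2 fold change of (value + 1) against untreated for the 9 tested members (rows) at each time after LPS (left) and IL-4 (right). Red is higher and blue is lower than untreated, and a number is printed where the limma test passed an adjusted p of 0.05. The LPS side is red throughout except for Ccl6, and the IL-4 side holds both signs, with Ccl3 and Ccl4 going from higher at 0.5 h to lower at 2 h.

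Neighboring LPS times were then compared. From 0.5 to 1 h, 4 of 9 passed (Ccl4, Ccl5, Ccl7 and Ccl22, all upward), beside 49.7% of tested genes. From 1 to 2 h, 4 passed (Ccl5 upward, Ccl2, Ccl6 and Ccl7 downward), beside 43.3%. From 2 to 4 h, 1 passed (Ccl6, upward), beside 22.9%. This last call was lost without LPS 2 h replicate 1 or 2 or LPS 4 h replicate 2 or 3, and leaving out untreated replicate 1 or LPS 4 h replicate 1 added a rise of Ccl3, making 2.

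After IL-4 the members moved in both directions. The 10 genes held 0.0102% ± 0.00135 (SD, n = 3) of all normalized read counts at 0.5 h of IL-4, against 0.00456% ± 0.000658 in untreated BMDMs, and 0.00587% ± 0.000747, 0.00339% ± 0.000137 and 0.00474% ± 0.000697 at 1, 2 and 4 h. The F test for a change along the course was passed by 6 of the 9 tested members (Ccl2, Ccl3, Ccl4, Ccl6, Ccl7 and Ccl24), beside 40.3% of all tested genes. Higher than untreated were 5 members at 0.5 h (Ccl2, Ccl3, Ccl4, Ccl7 and Ccl24, background 8.15%), 3 at 1 h (Ccl2, Ccl7 and Ccl24, 11.1%), 2 at 2 h (Ccl7 and Ccl24, 14.3%) and 1 at 4 h (Ccl24, 13.4%). Lower were 0 at 0.5 h (8.14%), 0 at 1 h (9.83%), 3 at 2 h (Ccl3, Ccl4 and Ccl6, 13.2%) and 0 at 4 h (12.5%). The median log2 fold change of the members was 1.13, 0.00, -0.50 and 0.33 at the 4 times, beside medians over all tested genes between -0.02 and 0.02.

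**Figure D3:**
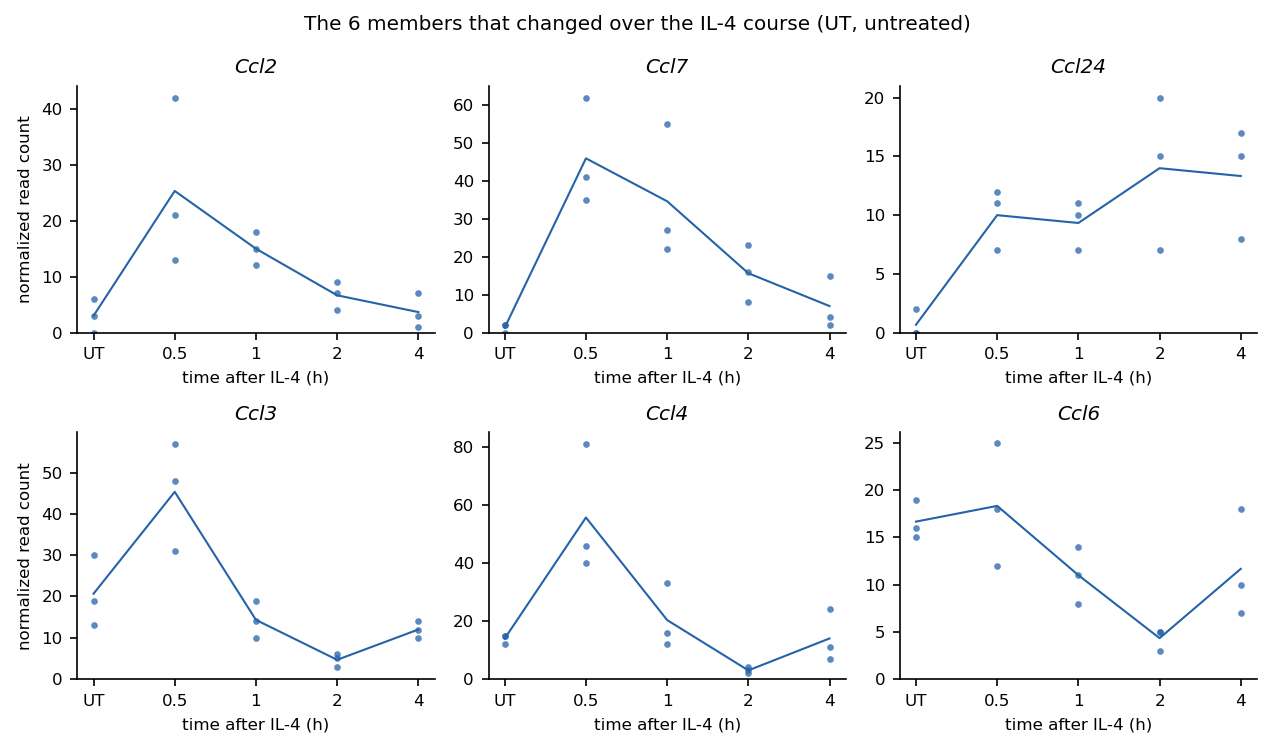
Normalized read counts (y axis, linear from 0) of the 6 members called in the F test of the IL-4 time course, by time (x axis, UT is untreated). Points are single libraries and the line joins the means of 3 replicates. Ccl2, Ccl7, Ccl3 and Ccl4 are highest at 0.5 h, Ccl3, Ccl4 and Ccl6 are lowest at 2 h, and Ccl24 stays at 7 or more in all 12 IL-4 libraries.

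Ccl7 showed the largest log2 rise of the members at 0.5 h of IL-4, from 0, 2 and 2 in untreated BMDMs to 35, 41 and 62 at 0.5 h. It then stood at 27, 55 and 22 at 1 h, at 23, 8 and 16 at 2 h and at 15, 2 and 4 at 4 h. All libraries of 0.5, 1 and 2 h were above the untreated ones, and those of 4 h overlapped them. The log2 differences were 4.46 ± 0.61 at 0.5 h (adjusted p = 0.000166), 3.99 ± 0.61 at 1 h (adjusted p = 0.00031) and 2.89 ± 0.61 at 2 h (adjusted p = 0.00292). These sizes depend on the 1 added to each count, and over the alternatives they went down to 2.51, 2.12 and 1.30. The 2 h call was lost without the libraries numbered 3 (adjusted p = 0.059). At 4 h Ccl7 did not pass (adjusted p = 0.0773), and it was called there when IL-4 4 h replicate 2 was left out, which brought the members called at 4 h to 2.

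Ccl2 moved with a smaller size, from 0, 6 and 3 to 13, 21 and 42 at 0.5 h, 12, 18 and 15 at 1 h, followed by 9, 4 and 7 at 2 h and 7, 1 and 3 at 4 h of IL-4. The mean was 8.44-fold above untreated at 0.5 h (log2 2.96 ± 0.66, adjusted p = 0.00675) and 5.00-fold at 1 h (log2 2.38 ± 0.66, adjusted p = 0.0196). Without untreated replicate 2 these ratios were 16.9 and 10-fold. The 0.5 h call was lost when replicates 2 and 3 were averaged into 1 sample (adjusted p = 0.0663) and without the libraries numbered 3 (adjusted p = 0.17). The 1 h call was lost in both ways (adjusted p = 0.09 and 0.162), without the libraries numbered 2 (adjusted p = 0.0578) and without untreated replicate 1, IL-4 1 h replicate 2 or IL-4 1 h replicate 3 (adjusted p = 0.075, 0.0679 and 0.0528).

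Ccl3 and Ccl4 went up and then below their starting level. Ccl3 held 57, 48 and 31 at 0.5 h of IL-4, 19, 10 and 14 at 1 h, followed by 5, 6 and 3 at 2 h and 14, 12 and 10 at 4 h, against 30, 13 and 19 in untreated BMDMs. Ccl4 held 81, 40 and 46, then 33, 16 and 12, then 4, 2 and 3, then 24, 11 and 7, against 15, 15 and 12. At 0.5 h all libraries of both genes were above and at 2 h all were below the untreated ones, and at 1 and 4 h they overlapped. The rise at 0.5 h was 2.19-fold for Ccl3 (log2 1.13 ± 0.34, adjusted p = 0.0359) and 3.98-fold for Ccl4 (log2 1.86 ± 0.43, adjusted p = 0.00886). At 2 h the mean was 4.43-fold lower for Ccl3 (log2 -1.90 ± 0.34, adjusted p = 0.000802) and 4.67-fold lower for Ccl4 (log2 -1.93 ± 0.43, adjusted p = 0.00417). The Ccl3 rise was lost without untreated replicate 2 or 3 or IL-4 0.5 h replicate 1 or 2 (adjusted p from 0.0927 to 0.158) and after scaling to equal totals (adjusted p = 0.0545). With replicates 2 and 3 averaged, the 0.5 h rises of Ccl3 and Ccl4 (adjusted p = 0.152 and 0.0854) and the 2 h fall of Ccl4 (adjusted p = 0.0623) did not pass. Without the libraries numbered 2, the rises of Ccl3 and Ccl4 (adjusted p = 0.382 and 0.118) and the fall of Ccl4 (adjusted p = 0.13) were lost, and without those numbered 3 both rises were lost (adjusted p = 0.134 and 0.0953).

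Ccl6 fell at 2 h of IL-4, to a mean of 4.33, which was also its mean at 2 h of LPS. Its libraries held 18, 12 and 25 at 0.5 h, 11, 14 and 8 at 1 h, followed by 5, 5 and 3 at 2 h and 7, 18 and 10 at 4 h of IL-4, against 16, 19 and 15 untreated. The 2 h mean was 3.85-fold lower (log2 -1.75 ± 0.34, adjusted p = 0.00162). E230016K23Rik on the other strand had means of 24.0, 15.3, 6 and 14.3 at the same times.

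Ccl24 was the member called higher at all 4 times after IL-4. It held 7, 11 and 12 at 0.5 h, 11, 7 and 10 at 1 h, followed by 7, 15 and 20 at 2 h and 8, 17 and 15 at 4 h, against 0, 2 and 0 in untreated BMDMs. The 12 IL-4 libraries were all above the 3 untreated ones. The log2 differences were 2.90 ± 0.46 (adjusted p = 0.000586), 2.82 ± 0.46 (adjusted p = 0.000536), 3.27 ± 0.46 (adjusted p = 0.000127) and 3.25 ± 0.46 (adjusted p = 0.000146) at the 4 successive times, and none of its steps between neighboring times passed. The sizes depend on the 1 added to each count, with 1.05 at 0.5 h and 1.31 at 2 h when 8 was added, and the 0.5 h call was lost without the libraries numbered 3 (adjusted p = 0.0618). Its level stayed low in absolute terms, with 20 normalized read counts as the highest value in any library.

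Ccl5, Ccl9 and Ccl22 did not pass at any IL-4 time. Ccl5 held 0 to 2 normalized read counts in the IL-4 libraries except for 7 in IL-4 4 h replicate 2, and Ccl22 held 0 or 1 in all 12. Ccl9 held 69, 72 and 100 at 0.5 h, 48, 62 and 56 at 1 h, followed by 31, 47 and 40 at 2 h and 57, 52 and 54 at 4 h of IL-4, which overlapped its untreated range of 37 to 84 throughout (F test adjusted p = 0.0547). Ccl17 was at 0 in 11 of the 12 IL-4 libraries and at 1 in the other.

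Between neighboring IL-4 times, Ccl3 fell from 0.5 to 1 h by 1.59 on the log2 scale (adjusted p = 0.0117), as the 1 member called beside 7.82% of tested genes. From 1 to 2 h, 3 members were called (Ccl3, Ccl4 and Ccl6, all downward), beside 9.40%, and Ccl4 showed the largest fall, by 2.32 (adjusted p = 0.00409). Ccl6, which fell by 1.16, was just past the threshold (adjusted p = 0.0488), kept the call in 8 of 27 alternatives and lost it without any 1 of 11 libraries (adjusted p from 0.0541 to 0.183), the 3 untreated, IL-4 0.5 h replicate 1, all IL-4 1 h and 2 h libraries and IL-4 4 h replicate 3. From 2 to 4 h, Ccl4 rose by 1.77 ± 0.43 (adjusted p = 0.0314), as the 1 member called beside 5.48%. With the replicate number as a block, an alternative to the main fit, 2 members fell from 0.5 to 1 h (Ccl3 and Ccl4) and 3 rose from 2 to 4 h (Ccl3, Ccl4 and Ccl6). Single libraries moved these counts. The first lost Ccl3 without IL-4 1 h replicate 2 and gained Ccl4 without IL-4 1 h replicate 1 or IL-4 4 h replicate 1 or 3, the second kept 1 member without IL-4 1 h replicate 1 or 3 or IL-4 2 h replicate 3, and the third (Ccl4 was called in 19 of 28 alternatives) went to 0 without IL-4 2 h replicate 2 or 3 or IL-4 4 h replicate 2, held Ccl6 in place of Ccl4 without IL-4 4 h replicate 1 and went to 2 without untreated replicate 1 or 2.

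LPS and IL-4 BMDMs were also compared at the same time point, in one fit of all 27 samples. Higher after LPS were 6 members at 0.5 h (18.0% of tested genes), 7 at 1 h (24.0%), 7 at 2 h (26.4%) and 7 at 4 h (26.1%). Those were Ccl2, Ccl3, Ccl4, Ccl5, Ccl9 and Ccl22 at each time, joined by Ccl7 from 1 h. Lower after LPS was 1 member, Ccl24, at 0.5 h (35.8% of tested genes), 1 h (40.5%), 2 h (42.3%) and 4 h (41.9%). Ccl6 was not called at any time.

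**Figure D4:**
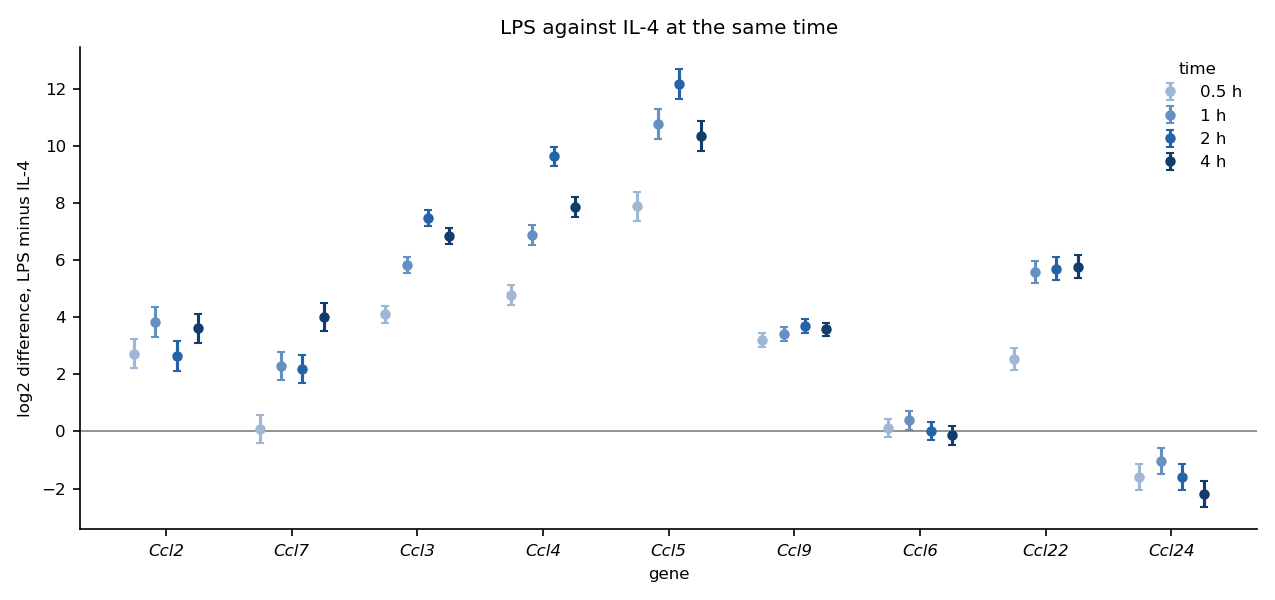
Difference between LPS and IL-4 at the same time on the log2(value + 1) scale (y axis) for the 9 tested members (x axis), with darker points for later times and bars for the SE from the limma fit of all 27 samples. Values above 0 are higher after LPS. Ccl5 reaches 12.18 at 2 h, Ccl7 starts at 0.08 at 0.5 h, and Ccl24 lies below 0 at all 4 times.

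Ccl4 and Ccl3 each differed most between LPS and IL-4 at 2 h, when they were high after LPS and below untreated after IL-4. Ccl4 had 3173, 2876 and 3283 normalized read counts after LPS and 4, 2 and 3 after IL-4 (log2 difference 9.63 ± 0.35, adjusted p = 3.51e-17), and Ccl3 had 883, 1104 and 970 against 5, 6 and 3 (7.48 ± 0.28, adjusted p = 8.38e-17). Ccl5 was at 0 in all 3 IL-4 2 h libraries, so its LPS mean was at least 1548-fold higher there (12.18 ± 0.52, adjusted p = 9.00e-16). Ccl22, at 0 in all IL-4 libraries of 1 and 2 h, was at least 15.8-fold and at least 18.6-fold higher after LPS at those times (adjusted p = 1.77e-11 and 7.24e-12). Ccl9 differed by a like amount at all 4 times, with log2 differences of 3.21, 3.43, 3.70 and 3.57 (SE 0.24, adjusted p from 2.69e-12 to 1.14e-10).

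Of the Ccr2 ligands, Ccl2 and not Ccl7 was called at 0.5 h. Ccl7 held 42, 58 and 43 after LPS and 35, 41 and 62 after IL-4, ranges that overlap, with a log2 difference of 0.08 ± 0.49 (adjusted p = 0.915). Ccl2 held 167, 165 and 137 against 13, 21 and 42 at that time (2.73 ± 0.52, adjusted p = 0.000108). From 1 h on, Ccl7 was higher after LPS as well, by 2.30 ± 0.49 at 1 h (adjusted p = 0.000246) and by 4.01 ± 0.49 at 4 h (adjusted p = 1.23e-07). Ccl24 was lower after LPS by 1.60 ± 0.46 at 0.5 h (log2 -1.60, adjusted p = 0.00486), -1.58 ± 0.46 at 2 h (adjusted p = 0.00381) and -2.19 ± 0.46 at 4 h (adjusted p = 0.000179). The 0.5 h call was lost with replicates 2 and 3 averaged (adjusted p = 0.0613) and without the libraries numbered 2 or 3 (adjusted p = 0.0748 and 0.0791), and the 2 h call without those numbered 3 (adjusted p = 0.0606). At 1 h the difference of -1.05 ± 0.46 was just past the threshold (adjusted p = 0.049). That call was lost with any 1 of 17 libraries left out (adjusted p from 0.0518 to 0.235), namely LPS 0.5 h replicates 2 and 3, LPS 1 h replicates 1 and 2, all LPS 2 h and LPS 4 h libraries, IL-4 0.5 h replicates 2 and 3, IL-4 1 h replicates 1 and 3, IL-4 2 h replicate 2 and IL-4 4 h replicates 2 and 3, and with median-ratio scaling (adjusted p = 0.119).

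Each member's share was taken as a description, with no test. Of the summed counts of the 10 genes, Ccl9 held 49.0% ± 12.2 (SD, n = 3) in untreated BMDMs, Ccl3 18.6% ± 10.2 and Ccl6 14.7% ± 3.17. At 0.5 h of LPS, Ccl4 held 41.2% ± 3.12, and at 2 h Ccl5 held 49.1% ± 0.907 and Ccl4 33.0% ± 2.40. At 1 h of IL-4, Ccl7 held 21.0% ± 8.01 and Ccl2 9.40% ± 1.76, and at 2 h Ccl9 held 44.8% ± 8.64 and Ccl24 15.8% ± 6.82. The Ccl24 share was 0.0387% ± 0.00469 at 2 h of LPS. These shares are counts per gene and not per length, and the Ccl5 share holds whatever reads it has in common with Gm32650.

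**Figure D5:**
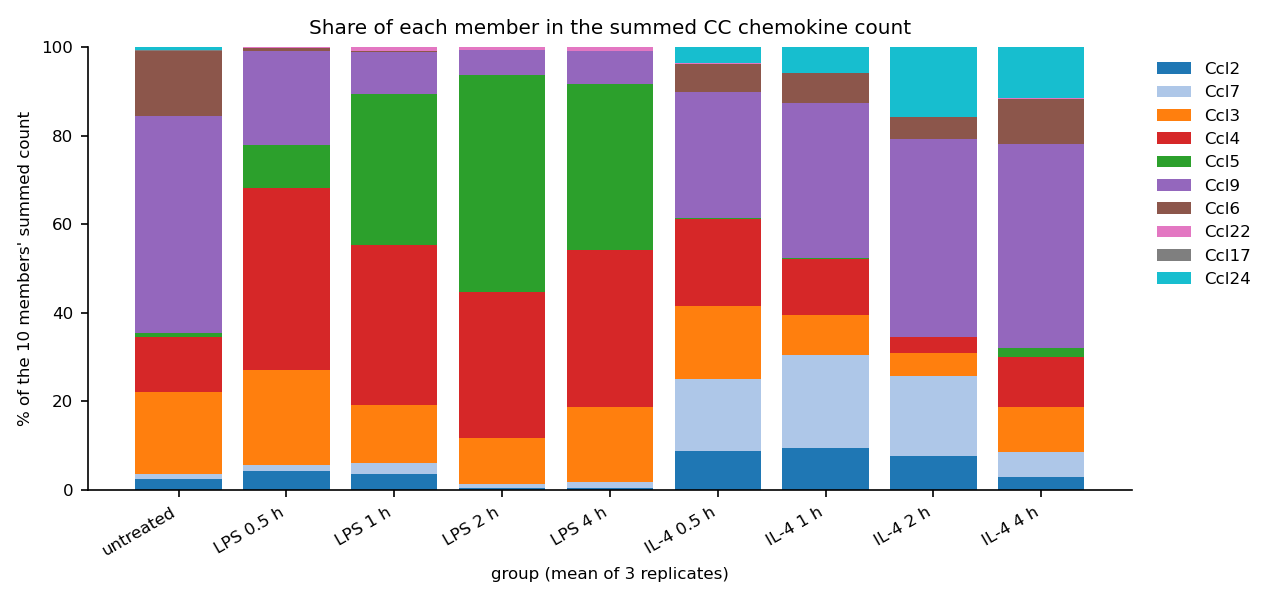
Stacked bars give the percentage of the 10 members' summed normalized read count held by each gene (y axis) in each of the 9 groups (x axis), as means of 3 replicates. Ccl9 is the widest band in untreated BMDMs and in each IL-4 bar. Ccl4 and Ccl5 fill most of the LPS bars from 1 h on, and at 0.5 h of LPS Ccl3 (21.4%) and Ccl9 (21.3%) are each wider than Ccl5 (9.59%). The Ccl2, Ccl7 and Ccl24 bands are wider in each IL-4 bar than in the LPS bar of the same time.

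Divided by gene span, levels per kb put Ccl3 (13.5 ± 5.61 normalized read counts per kb, SD, n = 3), Ccl9 (10.2 ± 4.16) and Ccl4 (6.67 ± 0.825) first in untreated BMDMs. The ranges of Ccl3 and Ccl9 overlapped, as did those of Ccl9 and Ccl4. At 2 h of LPS the order per kb of span was Ccl4 (1481 ± 100), Ccl5 (980 ± 78.3), Ccl3 (642 ± 72.5), Ccl9 (91.9 ± 20.0), Ccl7 (39.0 ± 7.80), Ccl2 (24.3 ± 2.94) and Ccl22 (9.76 ± 4.36), and no neighbors in that order overlapped. At 4 h Ccl4 (1511 ± 275) and Ccl3 (993 ± 244) overlapped per kb of span. Per kb of spliced cDNA, an alternative chosen after seeing the data, Ccl5 came first at 2 h (8731 ± 698) and Ccl4 next (4713 ± 319), since Ccl5 has 532 bases of cDNA in a span of 4741. By cDNA at 4 h of LPS, Ccl5 (6201 ± 197), Ccl4 (4808 ± 875) and Ccl3 (1931 ± 474) came in that order without overlap. The order thus depends on the length used, and whether reads were counted over exons or whole spans was not stated. At 2 h of IL-4 the order per kb of span began with Ccl7 (8.64 ± 4.14), Ccl9 (6.88 ± 1.40) and Ccl24 (4.49 ± 2.11), each overlapping the next.

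Across the 9 group means of log2(value + 1), the members fell into patterns that other genes shared. These correlations describe 9 points that share the same libraries, and no test was made of them. Ccl3 and Ccl4 had a Pearson r of 0.997 with each other and were both most like Socs3, a feedback inhibitor of cytokine signaling (r = 0.993 and 0.996), and Casp4, an inflammatory caspase (0.992 and 0.993). Socs3 had means of 3.33 in untreated BMDMs, 453 at 2 h of LPS and 1.33 at 2 h of IL-4. Ccl5 was most like Nupr1 (0.999), Acod1, the itaconate-producing enzyme (0.997), and Malt1 (0.995), and Ccl22 was most like Malt1 (0.995), Sppl2a (0.993) and Lrp10 (0.993). Ccl9 was most like Mrpl52 (0.994), Nfkbia, the inhibitor of NF-kappaB (0.992), and Tnfaip3 (0.991).

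Ccl2 and Ccl7 had an r of 0.895 with each other and differed in the genes most like them. Ccl2 was closest to Ell2, an elongation factor (0.991), P2ry2 (0.984) and Npas3 (0.983), and Ell2 had means of 374 in untreated BMDMs, 6572 at 1 h of LPS and 1099 at 0.5 h of IL-4. Ccl7 was closest to Ripk2, a kinase of the NOD pathway (0.953), Rgl1 (0.950) and Rufy3 (0.947), and Ripk2 had means of 164 in untreated BMDMs, 3251 at 2 h of LPS and 1454 at 0.5 h of IL-4. Ccl24 and Ccl3 had an r of -0.518. Ccl6 had an r between -0.165 and 0.185 with the other tested members except Ccl24 (-0.333).

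Other genes of the system were taken from lists. Of 13 further CC chemokine genes, 2 passed the filter. Ccl12, a mouse Ccr2 ligand that lies in the Ccl2 and Ccl7 cluster, went from 0, 2 and 1 in untreated BMDMs to 35, 31 and 35 at 0.5 h and 39, 67 and 85 at 4 h of LPS (log2 5.08 at 4 h, adjusted p = 1.04e-08), and to 5, 4 and 6 at 0.5 h of IL-4 (log2 1.71, adjusted p = 0.0147). Ccl25, a thymic and gut chemokine, fell from 155, 149 and 172 to 52, 81 and 65 at 2 h of LPS (log2 -1.27, adjusted p = 1.34e-05) and did not pass at any IL-4 time. None of the other 11 could be tested.

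Of 12 CC chemokine receptor genes, 7 passed the filter, and all 7 changed over the LPS course, beside 87.6% of all tested genes. Higher at their largest change were Ccr3, Ccr7, Ccr9 and Ccrl2, and lower were Ccr1, Ccr2 and Ackr4. Ccrl2, an atypical receptor, went from 1, 0 and 2 to 302, 267 and 293 at 0.5 h of LPS (log2 7.31, adjusted p = 2.03e-10). Ccr2, the receptor of Ccl2 and Ccl7, fell from 44, 97 and 97 in untreated BMDMs to 4, 3 and 8 at 2 h of LPS (log2 -3.74, adjusted p = 1.21e-05) and to 7, 12 and 12 at 2 h of IL-4 (log2 -2.77, adjusted p = 0.000267). Along the IL-4 course Ccr1 and Ccr2 changed, 2 of the 7, both downward, beside 40.3% of all tested genes. Ccr4, the receptor of Ccl17 and Ccl22, held 3 normalized read counts at most.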

How the data were processed

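Chromatin-associated RNA of 27 BMDM samples was sequenced by the authors after SMART-seq2 preparation with random primers. The authors aligned reads to mm10 with TopHat2 2.1.1, removed reads with several hits and, with bedtools 2.29.2, blacklisted regions, counted over GRCm38.p6 RefSeq genes and normalized on invariant genes. The deposited values are these normalized counts rounded to whole numbers and were treated as a score, not as raw counts. Strand of counting, and whether exons or whole gene spans were counted, are not given in the sources used here.

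All columns matched a sample (0 unmapped). Tests used limma 3.58.1 in R 4.3.3 on log2(value + 1) (mean-variance trend, Benjamini-Hochberg over 13901 genes). Each course was fitted with the untreated samples, and LPS and IL-4 were compared in a fit of all 27. The fits were checked on simulated data. The impulse model of the study was not run. Fold changes understate low genes. Depth before normalization is unknown, so no counting interval is given. The floor was 3 normalized read counts.

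Named were the 10 members, genes overlapping them, the lists of other CC chemokines and receptors, and, for members with a group mean of at least 50, the 3 protein-coding genes most correlated. Members and lists were chosen with earlier results of these data known. One gene of the receptor list is not reported here. Deviations of same-numbered samples from their group means correlated with r of at least 0.207 in the IL-4 course. In the LPS course r was at least 0.0897, which does not reach the 0.1 set for pairing. Over all groups the mean r was 0.512, 0.220 and 0.310 for samples numbered 1, 2 and 3, against -0.159 for differently numbered ones. Differently numbered IL-4 samples had r from -0.583 to 0.390, and replicates 1 stood apart, so pairing by number is not settled. The main tests used no replicate block, which is given as an alternative. Alternatives were other scalings, pseudocounts (0.25 and 8), filters, a replicate block, replicates 2 and 3 averaged, 1 fit of all samples, no trend, and leaving out each replicate number and each library.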

Additional observations from a re-analysis of the deposited data

Results flagged for a closer look

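Ccl3 and Ccl4 were picked out at 2 h because their changes against untreated BMDMs had opposite signs under LPS and IL-4 and the difference itself passed the limma test in the fit of all 27 samples. Ccl4 stood at 7.70 on the log2 scale above untreated after LPS and at -1.93 after IL-4, a difference of 9.63 (adjusted p = 3.51e-17), and 3 of 3 libraries of each group lay outside the untreated range in that direction. Ccl3 stood at 5.58 above untreated after LPS and at -1.90 after IL-4, a difference of 7.48 (adjusted p = 8.38e-17), again with 3 of 3 libraries on each side. Both comparisons use the same 3 untreated libraries. The IL-4 values lie near the floor, and over the alternatives the differences went down to 8.15 for Ccl4 and 6.29 for Ccl3. The cause was not tested.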

How the results depend on the processing

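Counts of CC chemokine genes past the threshold are given with the reported count first. In the LPS course, the step from 1 to 2 h had 4, with 2 at a pseudocount of 0.25 and 2 to 5 when each replicate was left out, and the step from 2 to 4 h had 1, with 0 when genes needed a mean of at least 50, 0 when replicates 2 and 3 were averaged and 0 to 3 when each replicate was left out. For IL-4 at 0.5 h, 5 became 2 with replicates 2 and 3 averaged and 1 to 5 with each replicate left out. At 2 h, 5 became 3 under the mean of at least 50, where Ccl24 and Ccl6 were not tested. At 4 h, 1 became 0 under that filter, 2 in 1 fit of all samples and 1 to 2 with each replicate left out. Across the untreated and IL-4 groups together, the F test called 6, and 3 without replicate 3 to 7 without replicate 1. The IL-4 step from 0.5 to 1 h had 1, with 2 at a pseudocount of 8, under the mean of at least 50, with the replicate block and in 1 fit of all samples, 0 with the averaged replicates and 0 to 2 with each replicate left out. The step from 1 to 2 h had 3, with 1 under no filter, 0 with the averaged replicates and 0 to 3 with each replicate left out. The step from 2 to 4 h had 1, with 2 at equal totals, a pseudocount of 0.25, the mean of at least 50 and 1 fit of all samples, 0 at a pseudocount of 8, under no filter and with the averaged replicates, 3 with the replicate block and 0 to 2 with each replicate left out. The log2 difference of Ccl7 between LPS and IL-4 at 0.5 h, 0.08 and not past the threshold, was -0.30 at equal totals and -0.13 to 0.37 with each replicate left out. The replicate block moved no other such count by more than 1.5 times and ended no call of a single CC chemokine gene, in the IL-4 course, the LPS course or the direct comparison of LPS with IL-4. Of 92 gene values past the threshold, against untreated, between neighboring times or between LPS and IL-4, 23 lost it in at least 1 alternative and 0 changed sign. Of the 14 between neighboring times, 9 lost it. For these changes the cause was not tested where the construction of the alternative does not show it. The depth before normalization is unknown, so no counting interval is given.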
